A study of Bos taurus with 8 samples.

Results

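Nuclear hormone receptors are transcription factors that bind DNA through paired zinc fingers and are switched by small fat-soluble ligands such as retinoic acid, steroids, vitamin D, bile acids and fatty acids. Many of them bind as dimers with a retinoid X receptor, and some, the orphan receptors, have no settled physiological ligand. In lung they are known for roles in alveolar septation, surfactant lipid supply, epithelial growth and the daily clock. The genes described here are 38 named members of this family and were taken by gene symbol. Of these, 27 had at least 1 array probe matched by transcript accession, 21 had a probe that could be tested, and 9867 genes were tested in all.

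Lung RNA came from 8 Holstein calves on 1-colour Agilent bovine arrays, 1 array per calf. The 4 clones had respiratory failure and died of it by 4 days after birth, and the 4 normal calves were naturally conceived, healthy and slaughtered at that age. All 8 calves are labelled as 4 days old. The comparison asks which genes differ between the collapsed lungs of cloned calves and healthy newborn lung. The sources used here do not say whether the clones shared a donor cell line. Cloning, respiratory failure and death from it came together in 1 group, so they cannot be told apart.

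Signals are given as log2 of the processed spot signal minus the 75th percentile of the same array, so a value of 0 is the 75th percentile of that array. A probe counts as detected on an array when the scanner software marked it well above background. It was tested when it was detected on at least 4 of the 8 arrays. A gene was read from the brightest of its tested probes, by the mean over all 8 arrays. Levels of different genes are not compared, because array probes differ in how well they capture their target.

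Between 78.8% and 83.5% of spots were detected per array, fewer on each of clones 1, 3 and 4 than on any normal array. All 10 lung cell markers checked, among them the surfactant gene SFTPC, were detected on all 8 arrays. None of them was called. The lowest unadjusted p was that of the club cell secretory gene SCGB1A1, between 0.34 and 2.37 in clones and between 2.18 and 3.91 in normal calves. Its log2 difference was -1.81 (95% interval -2.96 to -0.65, limma adjusted p = 0.202). Each group filled a slide of its own, so slide and group cannot be told apart. The 10 spike-in controls, which are added in fixed amounts, all stood higher relative to the lung probes in clones than in normal calves, with a median log2 difference of 0.67. A change shared by most lung transcripts is therefore not measured by these values. Clones 2, 3 and 4, and neither clone 1 nor any normal calf, had detected signal for the Y-linked genes DDX3Y and USP9Y. Y-linked signal was thus largely tied to group, and its part in the differences was not tested. RNA was taken from whole lung, where fewer cells of a type and less RNA per cell cannot be told apart.

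The receptor genes NR1H4 and NR2E3 fell in the clones and none rose. NR1H4 is the bile acid receptor FXR and NR2E3 an orphan receptor known from photoreceptors. Both were detected in all 4 normal calves and in 0 of 4 clones on their brightest probes. The other NR1H4 probe was also detected in clone 2 and was not called (limma adjusted p = 0.0571). The remaining 19 tested receptors had differences of at most 0.96 in size on the log2 scale, with adjusted p between 0.262 and 0.981. Over all 9867 genes, 0.182% passed the same threshold (limma, Benjamini-Hochberg adjusted p under 0.05), with 14 genes (0.142%) lower and 4 (0.0405%) higher in clones. An unadjusted p under 0.05 was found for 3 of the 21 receptors, RORA with a higher and NR1H4 and NR2E3 with a lower level in clones. Over all genes the shares were 13.0%, with 6.37% higher and 6.58% lower. NR1H4 and NR2E3 entered the test only through the normal arrays. With detection in 0 clones, their probes were tested only because all 4 normal calves were detected. For that reason the count of 2 in 21 is a description and no sign that receptors changed more often than other genes.

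**Figure D1:**
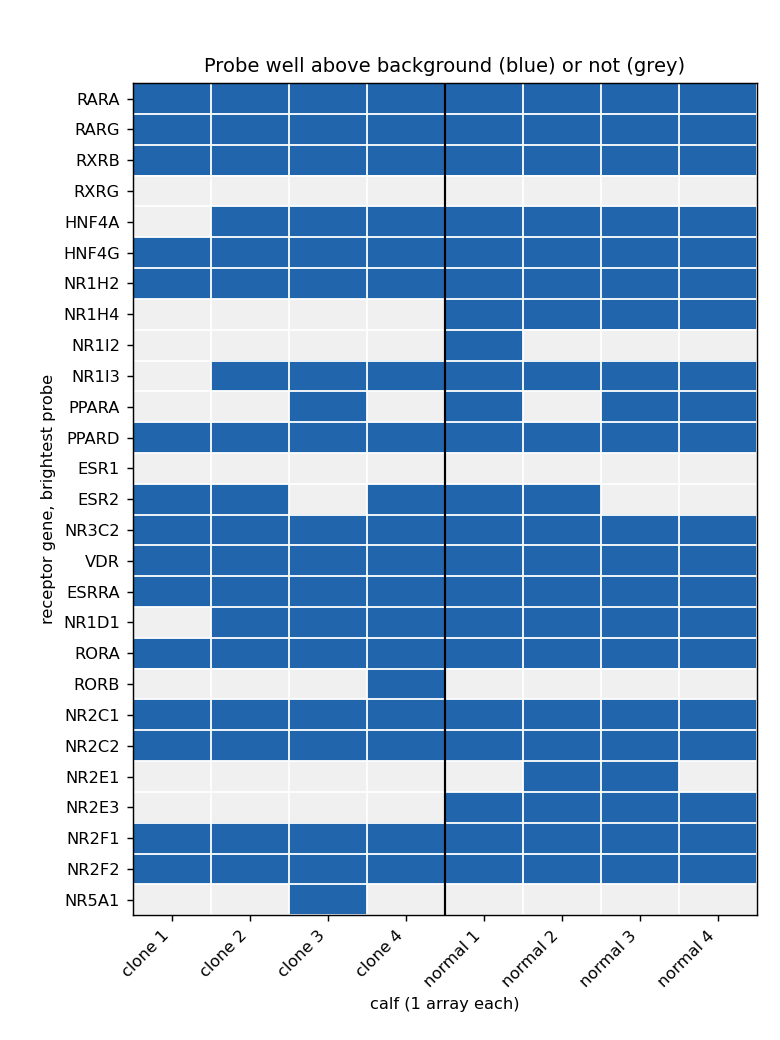
Detection of the 27 receptor genes with a matched probe (rows, brightest probe per gene) in the 8 calves (columns); blue marks a probe well above background and grey one that was not. Rows of NR1H4 and NR2E3 are grey in all 4 clones and blue in all 4 normal calves, and 14 of the tested genes are blue in every calf.

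Detection alone separated the receptors into 3 groups. Among the tested genes, 14 were detected on all 8 arrays: RARA, RARG, RXRB, HNF4G, NR1H2, PPARD, NR3C2, VDR, ESRRA, RORA, NR2C1, NR2C2, NR2F1 and NR2F2. The other 7 were detected on 4 to 7 arrays: NR1D1, NR1I3, HNF4A, ESR2, PPARA, NR1H4 and NR2E3. A further 6 genes, NR1I2, NR2E1, NR5A1, RXRG, ESR1 and RORB, had probes that were detected on 0 to 2 arrays and were not tested. Clones had 15, 18, 19 and 19 of the 27 genes detected, and normal calves 22, 21, 21 and 20. All clones were thus below all normal calves in this count. NR1H4 and NR2E3 were counted in every normal calf and in no clone, and without these genes the counts of the groups overlap. The share of detected spots over the whole array was 79.3%, 80.6%, 79.4% and 78.8% in clones 1 to 4 against 83.5%, 82.2%, 82.2% and 80.4% in normal calves 1 to 4. Its part in the receptor counts was not tested.

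For the remaining 11 genes, NR0B1, NR0B2, NR1D2, NR2F6, NR5A2, NR6A1, RARB, RXRA, ESRRB, ESRRG and PGR, no probe was matched by accession, and they were not analysed here. They include RXRA, the most widely shared dimer partner of the family, and NR0B2, a corepressor that is a classical target of the bile acid receptor. The picture below therefore covers the retinoid X receptors through RXRB and RXRG alone.

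NR1H4 is activated by bile acids and is best known from liver and intestine, where it represses bile acid synthesis and induces bile acid export. Its brightest probe measured -6.61, -7.19, -7.50 and -6.68 in clones 1 to 4 against -4.82, -4.84, -4.43 and -4.13 in normal calves 1 to 4. The groups did not overlap, and every clone lay below the dimmest detected spot of its own array. The means were -7.00 ± 0.42 in clones and -4.55 ± 0.34 in normal calves (log2, mean ± SD, n = 4 each), a measured log2 difference of -2.44 (95% interval -3.05 to -1.83, limma adjusted p = 0.0152).

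Because the clone values are background, the size of the decrease in NR1H4 is not known exactly. For a rough limit each clone was given either its own value or that of its dimmest detected spot, whichever was higher. The mean was then set against that of the normal calves. By this limit NR1H4 was 3.62-fold lower in clones, and the adjusted p above belongs to the measured difference and not to this limit. The limit is no sure minimum, because a probe above the dimmest detected spot can still be undetected. PPARA in clone 1 was undetected at -6.38, while the dimmest detected spot of that array lay at -6.53. The other probe of NR1H4 measured -8.82, -6.47, -8.69 and -6.91 in clones 1 to 4 against -4.40, -4.21, -4.16 and -3.59 in normal calves 1 to 4. It was detected in 1 of 4 clones, clone 2, and in all normal calves, and the groups again did not overlap. In every normal calf this probe was brighter than the first, which ranked higher only through the clone values. Its log2 difference was -3.63 (95% interval -4.87 to -2.39) as measured, with an adjusted p of 0.0571 by limma. With 3 of 4 clones at background, this probe too gives no exact size.

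NR2E3 is required in the retina for rod photoreceptor identity, where it represses cone genes. Its brightest probe measured -8.75, -8.74, -8.57 and -8.34 in clones 1 to 4 against -5.04, -3.55, -5.84 and -5.16 in normal calves 1 to 4. All normal calves lay above all clones, and normal calf 2 stood highest. The means were -8.60 ± 0.19 in clones and -4.90 ± 0.97 in normal calves (log2, mean ± SD, n = 4 each), a measured log2 difference of -3.70 (95% interval -4.69 to -2.71, limma adjusted p = 0.0184). By the same rough limit NR2E3 was 2.85-fold lower in clones.

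The other NR2E3 probe was not detected on any of the 8 arrays and so gives no second reading of the gene. It measured between -8.82 and -8.36 in clones and between -9.18 and -8.67 in normal calves. The clone values of the brighter NR2E3 probe lie in the same low range as this empty probe. The mean of this undetected probe was 0.28 higher in clones, on arrays whose 75th percentile was lower.

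**Figure D2:**
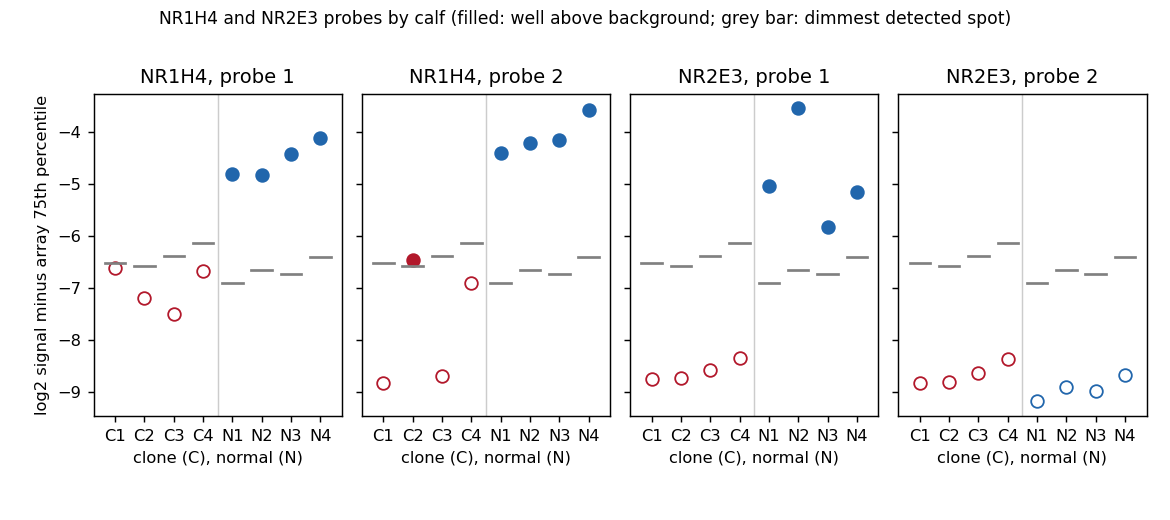
Both probes of NR1H4 and NR2E3 in each calf (C1 to C4 clones in red, N1 to N4 normal calves in blue) as log2 signal minus the array's 75th percentile; filled points were well above background, open points were not, and each grey bar is the dimmest detected spot of that array. Normal calves lie between -4.84 and -4.13 on the first NR1H4 probe and between -5.84 and -3.55 on the first NR2E3 probe, with all clones below them.

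The calls of these genes rest on few animals. Without normal calf 1 or without normal calf 4, neither passed. Without clone 2 or clone 4 only NR1H4 passed, and without normal calf 2 or 3 only NR2E3. With 1 calf left out, the log2 difference of NR1H4 ranged from -2.57 to -2.28 (adjusted p from 0.00729 to 0.0658) and that of NR2E3 from -4.02 to -3.25 (adjusted p from 0.0130 to 0.0843). Neither passed after normexp background correction, which pulls dim probes together. With 75th percentile centring the difference was then -1.34 for NR1H4 and -1.38 for NR2E3 (adjusted p = 0.657 for both), and with quantile normalization -0.47 and -0.69 (adjusted p = 0.0998 and 0.168).

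Centred on the spike-ins in place of the 75th percentile, the median difference of all tested probes was -0.71 and 6 of 21 receptors were called, all lower. The added genes were HNF4A, NR2C2, RXRB and VDR. Over all 35636 probes the calls then numbered 69 higher and 10623 lower, against 17 higher and 46 lower with 75th percentile centring.

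Markers of tissues in which these receptors are best known were read on the same arrays. Of 12 hepatocyte markers, 12 had a probe, 6 were detected in all clones and 9 in all normal calves. Their mean level ranged from -3.36 to -1.69 in clones and from -3.03 to -1.46 in normal calves, and the albumin gene ALB was detected in 2 clones and 3 normal calves. None of the 12 was called, and 6 had a positive and 6 a negative difference. The fibrinogen genes FGA, FGB and FGG had log2 differences of -2.68, -1.82 and -1.43, the plasma protein gene APOH one of -1.64, the transferrin gene TF one of 0.76 and ALB one of 0.55. At an unadjusted p under 0.05 stood FGA (lower) and TF (higher), with limma adjusted p of 0.281 and 0.279. Without clone 1 the differences of APOH and FGB were -1.04 and -1.19. Of 12 enterocyte and gastric markers 10 had a probe, and 4 were detected in all clones and 5 in all normal calves. Their mean ranged from -5.45 to -4.62 in clones and from -4.62 to -4.31 in normal calves, and CYM, the calf stomach protease chymosin, fell by 6.97 (limma adjusted p = 0.0180). The stomach genes PGA5 and ATP4A had log2 differences of -1.02 and -0.70 (limma adjusted p = 0.179 and 0.207) with groups that did not overlap. The other tested genes of the list, VIL1, FABP2, ALPI and APOA4 of the enterocyte, had log2 differences of 1.36, 1.13, 0.45 and 0.05 (limma adjusted p from 0.509 to 0.978). Those of VIL1 and ALPI rested on clone 3 and were -0.0052 and -0.078 without it. The list thus had 4 positive and 3 negative differences and a median of 0.05. GKN1, a gastric epithelial protein, was detected in 0 clones and 1 normal calf. The part of such cells or RNA in the decrease of NR1H4 was not tested.

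Photoreceptor markers did not separate the groups. Of 13 listed, 12 had a probe and 6 were tested, 4 with a positive and 2 with a negative difference. The negative ones were SAG at -0.34 and PDE6A at -0.30 (limma adjusted p = 0.468 and 0.684). SAG was detected in 1 clone and 4 normal calves, and PDE6A in 1 clone and 3 normal calves. The part of such RNA in the decrease of NR2E3 was not tested. The smallest unadjusted p was 0.0679 (limma), for PDE6G, a phosphodiesterase subunit. Their mean level ranged from -5.51 to -5.04 in clones and from -5.57 to -5.28 in normal calves. PDE6B, a rod phosphodiesterase subunit, was detected in no calf. CRX, a photoreceptor transcription factor, was detected in every calf and had a log2 difference of 0.16 (95% interval -0.19 to 0.51, limma adjusted p = 0.721).

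**Figure D3:**
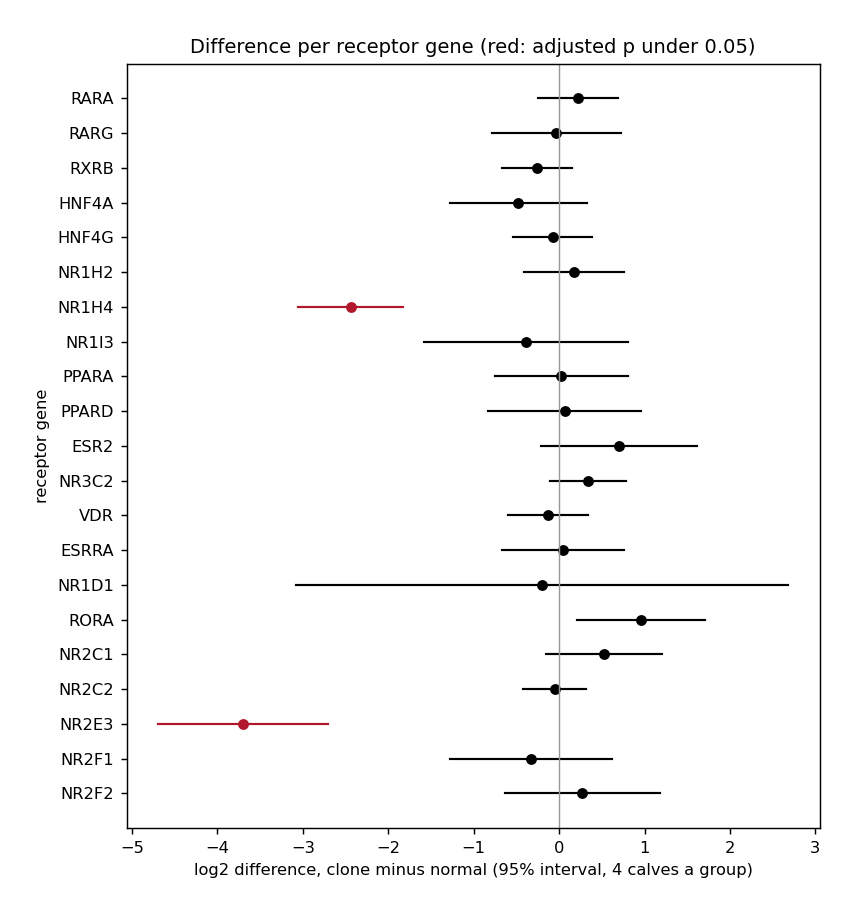
Log2 difference between clones and normal calves for the 21 tested receptor genes, with 95% intervals from limma (4 calves a group); red marks adjusted p under 0.05. NR1H4 at -2.44 and NR2E3 at -3.70 lie apart, and the interval of NR1D1 runs from -3.09 to 2.68.

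The other lipid and xenobiotic sensors gave no call. NR1H2, the widely expressed oxysterol receptor LXR beta, measured 3.60, 3.34, 4.34 and 3.19 in clones 1 to 4 against 3.41, 3.57, 3.35 and 3.44 in normal calves 1 to 4. The normal values lay within 0.21 of each other and inside the range of the clones, where clone 3 stood highest. The log2 difference of NR1H2 was 0.18 (95% interval -0.41 to 0.76, limma adjusted p = 0.823).

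PPARD, a fatty acid sensor found in most tissues, measured 0.20, -0.49, 1.36 and -0.49 in clones 1 to 4 against 0.04, 0.06, 0.01 and 0.19 in normal calves 1 to 4. Clone 3 was again the highest, clones 2 and 4 were the lowest, and the SD of the clones was 10.9 times that of the normal calves. The log2 difference of PPARD was 0.07 (95% interval -0.83 to 0.96). PPARA, the fatty acid sensor that drives fat oxidation, was detected in 1 clone, clone 3, and in 3 normal calves. It measured -6.38, -6.40, -5.03 and -6.24 in clones 1 to 4 against -6.26, -6.32, -6.05 and -5.55 in normal calves, with a log2 difference of 0.03 (95% interval -0.75 to 0.81) near the background.

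HNF4A and HNF4G are receptors of liver, gut and kidney epithelium. HNF4A was detected in 3 clones and all normal calves, at -6.63, -5.85, -5.06 and -5.33 in clones 1 to 4 against from -5.63 to -4.91 in normal calves. Clone 1 was the lowest of the 8 calves and was not detected there, and both tested HNF4A probes had a negative difference (-0.48 and -0.27, limma adjusted p = 0.617 and 0.787). HNF4G was detected in every calf, from -5.40 to -4.73 in clones and from -5.18 to -4.74 in normal calves, with a log2 difference of -0.08 (95% interval -0.54 to 0.39).

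NR1I3, the constitutive androstane receptor of drug metabolism, was detected in 3 clones and all normal calves. It measured -6.58, -5.52, -4.15 and -4.67 in clones 1 to 4 against -4.50, -4.20, -5.39 and -5.25 in normal calves 1 to 4, so that clones lay both above and below the normal range. Its log2 difference was -0.39 (95% interval -1.59 to 0.81, limma adjusted p = 0.804). NR1I2, the related pregnane X receptor, was detected in 1 normal calf and 0 clones on the brighter of its 2 probes, and in 1 clone and 0 normal calves on the other.

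The retinoid receptors had small differences. RARA, which binds retinoic acid, measured -2.74, -2.72, -2.04 and -2.76 in clones 1 to 4 against between -2.84 and -2.69 in normal calves. Clone 3 alone stood above the rest, and the other clones lay inside the normal range. The log2 difference of RARA was 0.22 (95% interval -0.24 to 0.69, limma adjusted p = 0.699).

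RARG, the retinoic acid receptor abundant in epithelia, measured 0.07, 0.67, -0.91 and 0.51 in clones 1 to 4 against between 0.01 and 0.21 in normal calves. Here clone 3 was the lowest of the 8 calves while clones 2 and 4 were the highest. The log2 difference was -0.03 (95% interval -0.78 to 0.72), and all 3 of the RARG probes had a negative difference. RXRB, the dimer partner that could be measured, lay between -3.43 and -2.90 in clones and between -3.00 and -2.71 in normal calves. Its log2 difference was -0.26 (95% interval -0.66 to 0.15, limma adjusted p = 0.588), with clone 1 lowest. Neither probe of RXRG, a dimer partner of muscle and brain, was detected in any calf.

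Among the steroid and vitamin D receptors, NR3C2, the mineralocorticoid receptor that controls sodium uptake by epithelia, was detected in every calf. It measured -2.08, -1.41, -1.83 and -1.71 in clones 1 to 4 against -2.08, -2.20, -2.21 and -1.87 in normal calves 1 to 4. The groups overlapped, and the log2 difference was 0.34 (95% interval -0.11 to 0.78, limma adjusted p = 0.513). VDR, the vitamin D receptor, lay between -3.85 and -3.15 in clones and between -3.63 and -3.18 in normal calves, a log2 difference of -0.13 (95% interval -0.60 to 0.33).

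ESR2, the oestrogen receptor beta, measured -4.43, -5.82, -6.11 and -5.57 in clones 1 to 4 against -5.90, -5.60, -6.52 and -6.70 in normal calves 1 to 4. Clone 1, the clone without detected Y-linked signal, was the highest of the 8 calves, and the other clones overlapped the normal calves. ESR2 was detected in 3 clones and 2 normal calves. The log2 difference was 0.70 (95% interval -0.22 to 1.61, limma adjusted p = 0.511), and without clone 1 it was 0.35. The part of Y-linked signal in this value was not tested. ESR1, the oestrogen receptor alpha, was not detected in any calf on any of its 4 probes. ESRRA, an orphan relative that drives mitochondrial genes, lay between 0.40 and 1.60 in clones and between 0.83 and 1.15 in normal calves. Clones 1 and 3 were above all normal calves and clones 2 and 4 below them, and the log2 difference was 0.04 (95% interval -0.67 to 0.76).

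Among the clock receptors, NR1D1 varied more between clones than any other of the 21. NR1D1, or REV-ERB alpha, is a haem-binding repressor that turns over with the time of day. Its brightest probe measured -6.73, -5.10, -0.08 and -3.96 in clones 1 to 4 against -4.71, -4.51, -2.58 and -3.26 in normal calves 1 to 4. Clone 3 was the highest of the 8 calves, clone 1 was the lowest and was not detected, and the clones spanned a 101-fold range. The normal calves spanned 2.13 on the log2 scale. The log2 difference between the groups was -0.20 (95% interval -3.09 to 2.68, limma adjusted p = 0.966), so differences of several-fold in either direction were not detectable with these calves. The sources used here do not name the hour at which each calf was sampled. The other NR1D1 probe, at -6.56, -5.70, -3.74 and -6.00 in clones 1 to 4, also placed clone 3 highest and clone 1 lowest.

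RORA, an activator that binds the same DNA elements as REV-ERB, measured -0.35, -1.71, -0.63 and -1.62 in clones 1 to 4. The normal calves measured -2.22, -2.03, -1.85 and -2.05, so all clones lay above all normal calves, clones 1 and 3 by more than clones 2 and 4. The means were -1.08 ± 0.69 in clones and -2.04 ± 0.15 in normal calves (log2, mean ± SD, n = 4 each). RORA did not pass the test, with a log2 difference of 0.96 (95% interval 0.21 to 1.70, limma adjusted p = 0.262, unadjusted p = 0.0176). The difference kept its sign in all 20 alternatives and ranged from 0.27 to 1.17. RORA was the only receptor whose clones all lay above the normal calves, and NR1H4 and NR2E3 the only tested ones whose clones all lay below. Over all tested genes, 9.83% had groups that did not overlap, 5.05% with clones higher and 4.78% with clones lower. The 3 receptors in 21 that did not overlap include 2 that entered the test through the normal arrays alone. RORB, a relative of RORA known from brain and retina, was detected in 1 clone, clone 4, and no normal calf.

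**Figure D4:**
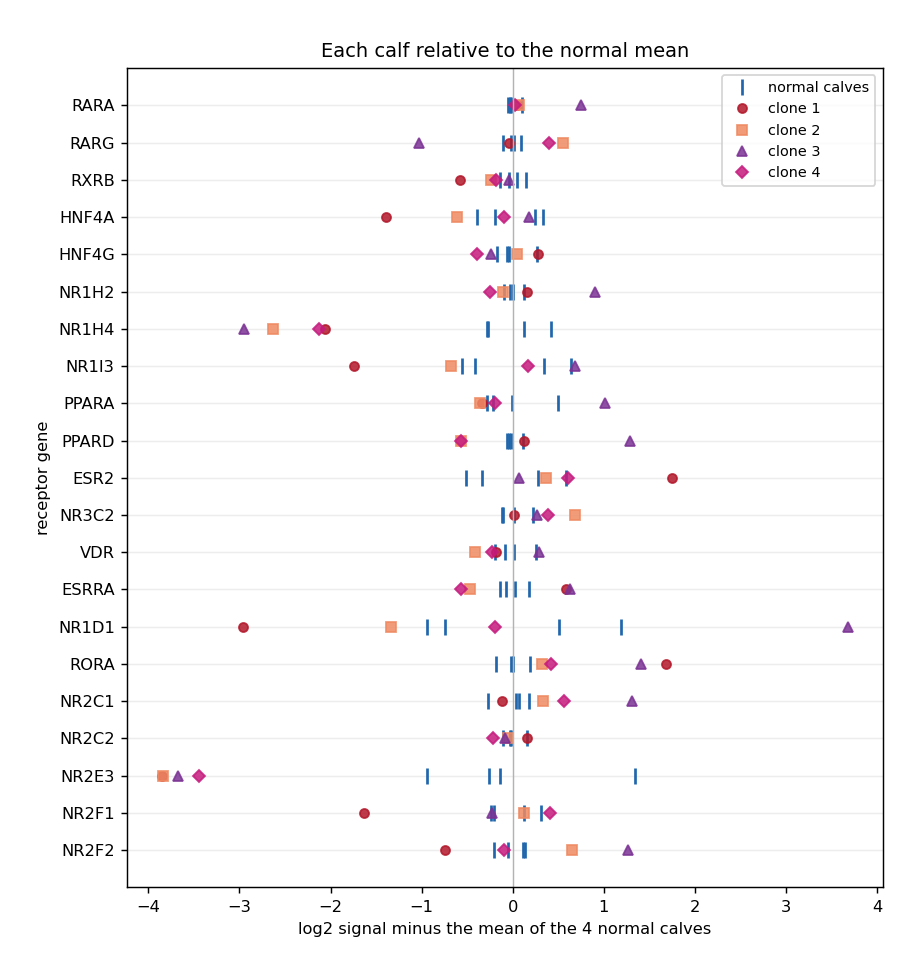
Log2 signal of each calf minus the mean of the 4 normal calves for the 21 tested receptors; blue ticks are normal calves and coloured symbols the clones. Clone 3 is the highest clone for 12 genes and clone 1 the lowest for 9, with NR1D1 spread widest.

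The orphan receptors of the testicular and COUP groups gave no call. NR2F2, or COUP-TFII, is a regulator of veins, lymphatics and mesenchyme. It measured 2.72, 4.12, 4.73 and 3.37 in clones 1 to 4 against 3.58, 3.60, 3.41 and 3.26 in normal calves 1 to 4. The clones spanned a 4.04-fold range around the narrow normal values, with clone 3 highest and clone 1 lowest, and all 4 probes placed these clones so. The log2 difference was 0.27 (95% interval -0.64 to 1.18, limma adjusted p = 0.822).

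NR2F1, or COUP-TFI, measured 1.17, 2.92, 2.57 and 3.21 in clones 1 to 4 against 2.59, 2.92, 3.11 and 2.56 in normal calves 1 to 4. Clone 1 lay apart below the rest, and the other clones lay in or near the normal range. The log2 difference was -0.33 (95% interval -1.28 to 0.62), and without clone 1 it was 0.10. NR2E1, or tailless, a neural stem cell receptor of the same subgroup as NR2E3, was detected in 0 clones and 2 normal calves on its brighter probe. That probe measured between -8.79 and -8.38 in clones and between -7.88 and -6.50 in normal calves and was too dim to be tested.

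NR2C1 and NR2C2, the testicular receptors, were detected in every calf. NR2C1 measured -3.66, -3.21, -2.23 and -2.98 in clones 1 to 4 against between -3.81 and -3.37 in normal calves, with 3 of 4 clones above every normal calf. Its log2 difference was 0.52 (95% interval -0.15 to 1.2, limma adjusted p = 0.507). NR2C2 had the smallest SD in clones of the 21, 0.15, with values between -2.18 and -1.81 in clones and between -2.07 and -1.81 in normal calves. Its 95% interval, -0.42 to 0.32, was the narrowest of the 21. NR5A1, the steroidogenic factor of adrenal and gonad, was detected in 1 clone, clone 3, and no normal calf. Of 9 markers of steroid-making cells 7 had a probe, with a mean between -2.17 and -1.06 in clones and between -1.64 and -1.35 in normal calves.

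Among the 21 receptors the spread was larger in clones than in normal calves for 20, with NR2E3 as the exception, where the clones were at background. Over all tested genes the clone SD was the larger in 91.1%. For 11 of the 21 all normal values lay inside the range of the clones. Clone 3 was the farthest clone from the normal mean for 10 receptors and clone 1 for 7, against 2 each for clones 2 and 4. In clone 3, 42.9% of the receptors were more than 1 from the normal mean on the log2 scale, beside 27.5% of all tested genes, and in clone 1 38.1% beside 19.7%. In clone 2 the shares were 14.3% and 12.6%, and in clone 4 9.52% and 13.8%. The median difference of the 21 receptors was -0.03, beside -0.02 over all tested genes, with 10 positive and 11 negative.

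Genes matched by several tested probes allow a check within the array. Of 11 such receptors, 5 had probes that differed in sign: NR1D1, NR1H2, NR2C2, PPARD and ESRRA. None of these was called, and the differences of their probes lay between -0.20 and 0.19. The probes of NR1H4, RARG, NR2F1, NR2F2, HNF4A and HNF4G had the same sign within each gene.

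**Figure D5:**
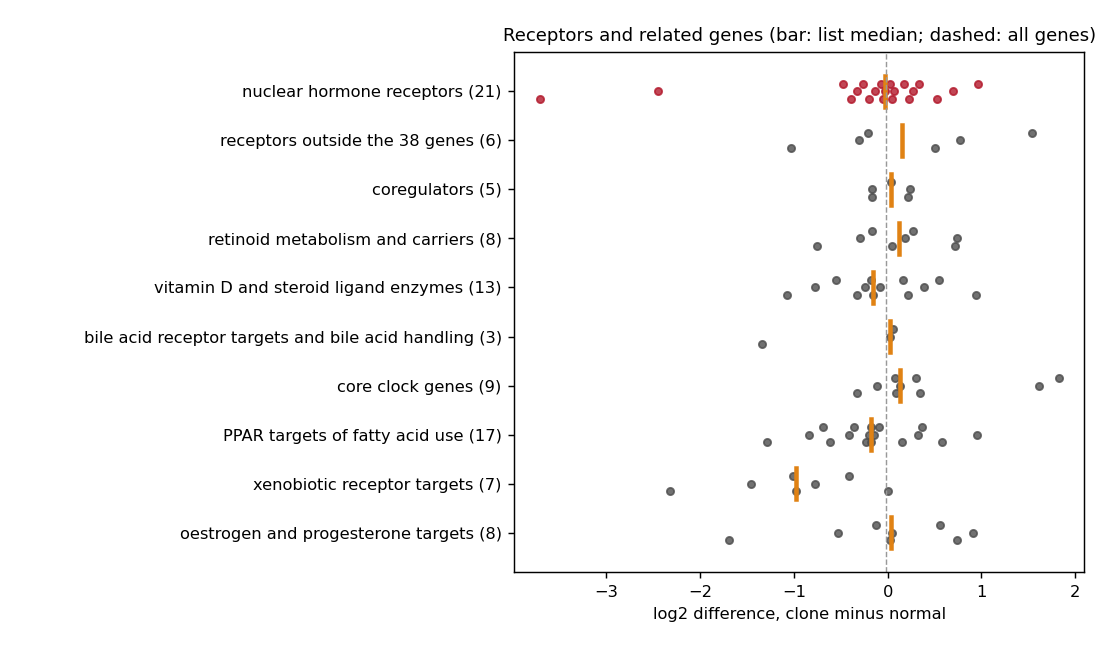
Log2 difference between clones and normal calves for the 21 tested receptors (red) and the tested genes of 9 related lists (grey, number in brackets), with the list median as an orange bar and the median of all genes as a dashed line. Xenobiotic receptor targets have a median of -0.98, and the other lists have medians between -0.18 and 0.15.

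The partners, ligand enzymes and targets of the receptors were read from 9 lists, of which 76 genes were tested. None passed with limma, while 6 were higher and 9 lower in clones at an unadjusted p under 0.05. These 15 of 76 stand beside 13.0% of all tested genes. The groups did not overlap for 11 of 76, beside 9.83% of all tested genes.

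Targets of the xenobiotic receptors had the lowest median. Of 13 listed genes 7 were tested, 6 with a negative difference, with a median of -0.98 beside -0.02 for all genes. The club cell gene SCGB1A1, was not called either and had a log2 difference of -1.81 (limma adjusted p = 0.202), and its part in these values was not tested. ALAS1, the rate-limiting enzyme of haem synthesis, measured 3.18, 3.12, 3.66 and 3.36 in clones 1 to 4 against 4.41, 4.42, 4.01 and 4.52 in normal calves 1 to 4. Every clone lay below every normal calf, with a log2 difference of -1.01 (95% interval -1.46 to -0.56, limma adjusted p = 0.104). Without clone 1 or without clone 3 ALAS1 was called. Over the whole array, 9247 probes without clone 1 and 7016 without clone 3 had an unadjusted p under 0.05 (limma), beside 4692 with all calves. CYP2B6, a drug-oxidising cytochrome, had a log2 difference of -2.32 (adjusted p = 0.245) and the cytochrome reductase POR one of -0.77 (adjusted p = 0.305), both by limma. In CYP2B6 normal calf 3, at -1.87, lay among the clones, and without that calf CYP2B6 was called. The number of probes at an unadjusted p under 0.05 (limma) was then 3628.

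Of the bile acid handling genes 3 of 13 were tested. SLC51B, a subunit of the bile acid exporter and a known target of the bile acid receptor, was detected in 1 clone and all normal calves. It measured -7.89, -6.21, -6.34 and -6.92 in clones 1 to 4. The normal calves measured -5.46, -4.75, -6.38 and -5.40. Normal calf 3 overlapped the clones, and the log2 difference was -1.34 (95% interval -2.36 to -0.32, limma adjusted p = 0.255). Its partner SLC51A, the canalicular pump ABCB11 and the ileal carrier FABP6 were not detected in any calf. SLC27A5 and SLC10A1, of liver bile acid conjugation and uptake, had differences of 0.05 and 0.02.

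Of the core clock genes 9 of 15 were tested, 7 with a positive difference and a median of 0.13. BHLHE40, a repressor induced by many stresses, measured 1.19, 0.61, 3.94 and 1.03 in clones 1 to 4 against 0.01, -0.17, -0.07 and -0.29 in normal calves 1 to 4. The groups did not overlap and clone 3 stood highest, as in NR1D1. The log2 difference of BHLHE40 was 1.82 (95% interval 0.33 to 3.31, limma adjusted p = 0.284). NFIL3, a repressor that competes with the clock activator DBP, had a log2 difference of 1.61 (limma adjusted p = 0.236) and ARNTL, the activator that REV-ERB represses, one of -0.33 (limma adjusted p = 0.581). Without clone 3 BHLHE40 was called, with a difference of 1.07, in a fit that called more probes over the whole array. Without clone 4 ARNTL stood at -0.18.

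Retinoid metabolism gave 8 tested genes of 15, with a median of 0.12. ALDH1A1, which makes retinoic acid, measured 5.12, 4.59, 4.07 and 4.34 in clones 1 to 4 against between 5.15 and 5.57 in normal calves. The clones all lay below the normal calves, clone 1 by the least, with a log2 difference of -0.76 (95% interval -1.32 to -0.19, limma adjusted p = 0.248). Without clone 1 it was called, as were many more probes over the whole array. RDH10, a retinol dehydrogenase, had a log2 difference of 0.74 (limma adjusted p = 0.566), which was 0.28 without clone 3.

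Steroid and vitamin D enzymes had 13 tested genes of 17 and a median of -0.16. HSD17B1, which makes oestradiol, had a log2 difference of 0.39 (limma adjusted p = 0.349) and its groups did not overlap. HSD11B2, which shields the mineralocorticoid receptor from cortisol, had one of -0.56 and SULT1E1, which inactivates oestrogen, one of -0.77 (limma adjusted p = 0.403 and 0.452). Without clone 1 that of SULT1E1 was -0.43.

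Targets of the fatty acid sensors had 17 tested genes of 19, 12 with a negative difference and a median of -0.18. HADHB of the mitochondrial trifunctional protein had a log2 difference of -0.69, CREB3L3 one of 0.95 and the peroxisomal enzyme EHHADH one of -1.28 (limma adjusted p = 0.356, 0.469 and 0.472). Each was smaller without 1 clone, at -0.44 for HADHB and -0.51 for EHHADH without clone 3 and 0.44 for CREB3L3 without clone 1. The groups did not overlap for 3 of the 17 genes, HADHB and EHHADH among them, all lower in clones. Over all tested genes 9.83% did not overlap, 4.78% with clones lower. Coregulators had 5 tested genes of 17, with NCOR1, a corepressor, at 0.24, NCOA4 at -0.17 and the coactivator PPARGC1A at -0.17. NCOR1 was at 0.10 without clone 3 and PPARGC1A at 0.09 without clone 1. Among 8 tested targets of oestrogen and progesterone of 12 listed, STC1 differed by 0.91, PDZK1 by -0.53 and FKBP5 by -1.69 (limma adjusted p = 0.188, 0.332 and 0.441). FKBP5 is also a glucocorticoid target, and its difference was -0.78 without clone 4.

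Of 10 family members outside the 38 genes, 6 were tested. The oxysterol receptor NR1H3, or LXR alpha, lay between 2.17 and 2.45 in clones and between 3.02 and 3.67 in normal calves, a log2 difference of -1.03 (limma adjusted p = 0.103). Its relative NR1H2 stood at 0.18, and the difference between these genes was not tested. The early-response orphan NR4A1 differed by 1.54 and PPARG by 0.50 (limma adjusted p = 0.131 and 0.318). NR1H3 and NR4A1 were called without clone 1. In that fit 9247 probes over the whole array had an unadjusted p under 0.05 (limma), beside 4692 with all calves.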

How the data were processed

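Lung RNA of 8 calves was hybridised to 1-colour (Cy3) Agilent arrays, and sample titles gave the groups and replicate numbers. The deposited intensity values come from Agilent Feature Extraction per the file headers, version 10.7 in the submitters' processing notes, and hold a processed signal with background subtracted. The 0 or 1 detection flags are from the same deposited files. The authors' deposited value table holds log2 values with a 75th percentile of 10.54 in every column. Each column tracked the log2 signal of its array (r of 0.999 or more), so scale and direction are known. How its columns were equalised was not given in the sources used here. It served as an alternative, but its results were close to those of quantile normalization. In both, the difference was -2.34 for NR1H4 and -3.78 for NR2E3, so they are not separate checks.

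Control and outlier spots (2 to 21 of 43803 per array) were left out. Log2 signal minus the array's 75th percentile was averaged per probe, and 35636 of 43653 probes, detected on at least 4 arrays, were kept. Transcript accessions without versions were matched to bovine RefSeq genes, which named 23492 probes and left 20161 unnamed. The array is annotated on Btau_3.1 and the gene table on another assembly, so no coordinates are given.

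The groups were fitted with limma 3.58.1 under R 4.3.3 (lmFit, eBayes, no covariate, 2-sided), and p-values were adjusted by Benjamini-Hochberg over all kept probes, with a threshold of 0.05. The script was tested on simulated data. The number of arrays limits the precision. The receptor genes and lists were chosen with earlier results of these data known. Every receptor is accounted for, and a listed gene is named when its adjusted p was under 0.05, when it had 1 of the 3 smallest p of its list, or as a tissue marker. Some list genes that this rule names are not reported here. Alternatives were quantile, median and spike-in scaling, normexp with an offset of 50 on the median spot signal (no mean signal was in the files), other filters on dim probes, the authors' table, the mean of a gene's probes, trend with robust eBayes, array weights, a block for replicate number, and each calf left out.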

Additional observations from a re-analysis of the deposited data

Results flagged for a closer look

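In groups of 4 calves, 1 value was set apart from the other 3 by a gap that was large for the range of its group in 2 of 42 groups checked, and chance flags about 5% of groups. RARA in clone 3 measured -2.04, while the other clones lay between -2.76 and -2.72. PPARA in clone 3 measured -5.03, while the other clones lay between -6.40 and -6.24, at or near background.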

How the results depend on the processing

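NR1H4 and NR2E3 stayed lower in every alternative and passed in 12 of 19 each. Quantile normalization and the authors' table, both counted among the 12, gave nearly the same values. RXRB, VDR and HNF4A stayed negative and RORA positive throughout, and 46 of 413 values over the 21 receptors changed sign. The cause of these changes was not tested, except where fewer probes or calves were tested. Spike-in centring called 6 receptors, 23 other pathway genes and 10692 probes, and 7 receptors did not overlap. It turned NR1H2 to -0.51, NR2C1 to -0.16, NR2F2 to -0.41, NR3C2 to -0.35, RARA to -0.46, PPARA to -0.66, PPARD to -0.62 and ESRRA to -0.64. Normexp with 75th percentile centring called 0 receptors and 0 probes (limma, 2278 probes at unadjusted p under 0.05), with 0 receptors that did not overlap. It moved the median of all probes to -0.32 and turned NR2C1 to -0.26, NR3C2 to -0.12, RARA to -0.27, PPARA to -0.80 and ESR2 to -0.59. Normexp with quantile normalization called 0 receptors, 25 probes and 1 other pathway gene (ALAS1), and turned NR1D1 to 0.26, ESRRA to -0.00814 and HNF4G to 0.0181. HNF4G was 0.00789 with quantile normalization and 0.00828 in the authors' table. With no filter on dim probes 2 of 27 receptors were called, NR1H4 and NR2E3, and 5 did not overlap. With detection required on all 8 arrays, which removes NR1H4 and NR2E3, 0 receptors and 17 probes were called and 1 receptor did not overlap. The mean of a gene's probes turned NR2C2 to 0.0495 and ESRRA to -0.0237. Trend with robust eBayes called 146 probes. Array weights, 0.116 for clone 1 and 0.0979 for clone 3, called 5 receptors (NR1H4, NR2E3, ESRRA and PPARD lower and NR3C2 higher), 23 other pathway genes and 11447 probes. They turned NR1H2 to -0.13, NR2F1 to 0.24, RARG to 0.40, PPARA to -0.37, PPARD to -0.53 and ESRRA to -0.46.

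With 1 calf left out, 0 to 2 receptors, 17 to 2562 probes and 0 to 4 other pathway genes were called, and 3 to 5 receptors did not overlap. The count of 2562 probes came without clone 1, and 451 were called without clone 3, against 63 with all calves. The calls of ALAS1, ALDH1A1, NR1H3 and NR4A1 without clone 1 stand beside the first count. Those of ALAS1 and BHLHE40 without clone 3 stand beside the second. Differences that changed sign ranged from -1.50 to 0.72 for NR1D1, -0.065 to 0.32 for NR1H2, -0.75 to 0.061 for NR1I3, -0.12 to 0.00591 for NR2C2, -0.58 to 0.10 for NR2F1 and -0.060 to 0.61 for NR2F2. They ranged from -0.23 to 0.30 for RARG, -0.30 to 0.19 for PPARA, -0.34 to 0.28 for PPARD, -0.15 to 0.25 for ESRRA and -0.19 to 0.027 for HNF4G. The replicate number as a block gave 0 receptors and 13 probes (limma, 3747 probes at unadjusted p under 0.05), with adjusted p of 0.0989 for NR1H4 and 0.112 for NR2E3. The deviations of clones and normal calves of the same number from their group means had correlations of 0.0915, 0.0991, -0.203 and -0.0987. The labels give them only a shared number, and these values cannot tell whether they shared anything else. Signals near background limit NR1H4, NR2E3, PPARA and ESR2, whose folds are compressed or only roughly limited, and slide and group cannot be told apart.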
